A study of Mus musculus with 24 samples.

Results

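The 10 genes described here (Cfd, Car3, Adipoq, Retn, Lep, Plin1, Cidec, Fabp4, Lpl and Pparg) are genes that fat cells are known for, chosen by name and measured by 13 of the array's 55681 probes. They are 10 of 21368 genes that the probes' accessions name. Transcripts were measured in the heart, skeletal muscle, brain and liver of 6 male mice, so that each mouse gave 1 array per tissue and 24 arrays in all. The 3 Rap1 KI/KI mice carried the I312R knockin allele of Rap1 (labelled RAP1 MUT), made with CRISPR/Cas9, and the 3 WT mice carried none. The knockin line had been crossed back 4 times to the strain labelled C57BL6, which the study's methods give as C57BL/6N. WT mouse 1 and KI/KI mouse 1 were 5 months old, and WT mice 2 and 3 and KI/KI mice 2 and 3 were 2 months old. Throughout, WT1 to WT3 and KI1 to KI3 name these animals.

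White fat cells store triglyceride in 1 large lipid droplet and release hormones and enzymes into the blood. The nuclear receptor PPARγ (Pparg) drives their differentiation together with C/EBP factors, and the proteins named here carry out the mature cell's work. Adiponectin (Adipoq), resistin (Retn), leptin (Lep) and complement factor D, or adipsin (Cfd), are secreted. Perilipin 1 (Plin1) and CIDEC (Cidec) coat and enlarge the lipid droplet, and carbonic anhydrase 3 (Car3) is a cytosolic enzyme that is abundant in fat. Lipoprotein lipase (Lpl) frees fatty acids from circulating triglyceride, and FABP4 (Fabp4) carries fatty acids inside the cell. Not all of these are confined to fat: the heart and muscle make Lpl, small-vessel endothelium makes Fabp4, and muscle fibres and hepatocytes hold Car3. Fat lies on the outside of the heart and between muscle bundles, so that a dissected organ can hold some of it. In tissue pieces such as these, fewer cells of a type and less RNA per cell cannot be told apart.

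A level here is the log2 of a probe's processed signal minus the log2 of its array's 75th percentile, so that 0 is the signal of that percentile and 1 unit is a doubling. The percentile itself lay between 470.7 and 1389 signal units on the 24 arrays, and 56.5% to 72.7% of probes per array were well above background. Levels of different probes are not compared, since probes differ in brightness. For Retn, Cidec and Lpl, which have 2 probes each, the probe with the higher mean level stands for the gene. The summed level of a list is the log2 of the sum of its genes' unlogged levels, so that its brightest probes weigh most. Each tissue held its own markers. The summed level of 6 cardiomyocyte genes was 10.86 to 11.67 in the hearts, and that of 6 skeletal muscle genes 11.75 to 12.19 in the muscles. That of 5 hepatocyte genes was 10.67 to 11.67 in the livers, and that of 6 neuron and glia genes 8.35 to 8.56 in the brains. The neuron and glia list also summed to 6.52 to 7.74 in the hearts, 6.14 to 6.85 in the muscles with a value and 4.28 to 4.80 in the livers. Some arrays stood apart. The heart of WT1 was nearly without the atrial transcripts of the other hearts, with Myl7, the atrial myosin light chain, at -2.41 against 5.03 to 8.33. The muscle of KI3 held the astrocyte gene Gfap at 1.94 and the neuronal gene Rbfox3 at 2.99, while the other muscles were at or below -2.60 and -2.08.

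The genes lie on 6 chromosomes of the GRCm38.p6 build: Cfd at chr10:79890853-79892655, Car3 at chr3:14863538-14872381, Fabp4 at chr3:10204342-10208616, Adipoq at chr16:23146536-23157968, Retn at chr8:3655770-3659818, Lpl at chr8:68880555-68906932, Plin1 at chr7:79721164-79732904, Lep at chr6:29060221-29073876, Cidec at chr6:113424634-113435760 and Pparg at chr6:115360879-115490404. RefSeq promoter entries of this build were found for 7 of the 10 genes, with Car3, Fabp4 and Lpl having none among those used, and the 250 bases before each start were searched on both strands. The letters TTGCNNAA, a form of the C/EBP element, occurred before a start of Lep, Plin1, Cidec and Pparg, and in 9.56% of 32851 promoter stretches of the same length. AGGTCA, the core element of many nuclear receptors, occurred before 2 of the 3 Pparg starts and before no other member, and in 14% of all stretches. Its direct repeat with 1 base between the copies, which holds AGGTCA at both ends, occurred before no member and in 0.0335% of stretches, and TATAAA occurred before 1 Pparg start and in 12.4% of stretches. The 30 bases around each TTGCNNAA match are shown to place the matches. Cfd, Adipoq and Retn, which held no match, had the same highest hearts (KI1 and KI3) as the 4 genes that held one. They run 5′ to 3′ in the gene's strand, with the match in capitals, and the number of the first matched base before the start is given after the gene.
Plin1, 187 before the start, chr7:79732945-79732974, minus strand: ccacctctttaTTGCCTAAacatcccccat
Plin1, 58 before the start, chr7:79732816-79732845, minus strand: tctgagaggcaTTGCCCAAgattccctgga
Cidec, 198 before the start, chr6:113434944-113434973, minus strand: ggagggctctaTTGCTCAAgggcccatggg
Lep, 55 before the start, chr6:29060155-29060184, plus strand: tggccggacagTTGCGCAAgtggcactggg
Pparg, 215 before the start, chr6:115421840-115421869, plus strand: tgtaccaagtcTTGCCAAAgcagcagacag
Pparg, 16 before the start, chr6:115422036-115422065, plus strand: ttaaccaaccaatcTTTTGCAAgacataga
The second Plin1 window and the windows of Cidec and Pparg lie inside the annotated span of their gene. The Lep match reads the same on both strands, and its whole stretch, chr6:29059971-29060220 on the plus strand, is given because Lep was the member detected in the fewest hearts.
Lep: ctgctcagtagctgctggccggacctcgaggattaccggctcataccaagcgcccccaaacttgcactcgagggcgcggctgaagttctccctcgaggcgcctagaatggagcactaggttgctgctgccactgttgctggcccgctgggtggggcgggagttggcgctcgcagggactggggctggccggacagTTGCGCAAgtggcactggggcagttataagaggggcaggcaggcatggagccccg

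In the hearts, 6 of the 10 genes spread over more than 8 log2 units between mice, and they did so in the same order at the ends. Cfd, Car3, Adipoq, Retn, Plin1 and Cidec were all highest in KI3, next in KI1 and lowest in WT1, with WT2, WT3 and KI2 close together between them. Their ranges were 8.01 to 9.12 on the log2 scale, against a median range of 1.02 over the 34819 heart probes tested with no missing value, and between 0.0201% and 0.0517% of those probes spread further. Fabp4, Lpl and Pparg ranged over 0.54, 1.03 and 1.04.

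Among the secreted proteins, Cfd was at -0.12, 4.68 and 4.53 in WT1, WT2 and WT3 and at 6.99, 4.97 and 8.14 in KI1, KI2 and KI3. Adipoq was at -4.23, 0.72 and -0.15 in the WT hearts and at 4.05, 0.42 and 4.86 in the KI/KI hearts. For both genes the WT1 heart was far below every other heart and the KI2 heart was close to WT2. The genotypes overlapped for Adipoq and not for Cfd. Retn, whose product opposes insulin action in mice, was at -3.74, -0.48 and -0.19 in WT and at 1.72, -0.47 and 4.29 in KI/KI, with KI2 between WT2 and WT3. Lep, the satiety hormone, was not well above background in the WT hearts (-7.59, -7.49 and -7.31) or in KI2 (-7.35). It was well above background in KI1 at -4.81 and in KI3 at -4.85, so that only those hearts gave a Lep signal.

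The lipid droplet genes followed the same order. Plin1 was at -4.98, -1.25 and -1.39 in WT and at 2.09, -1.47 and 3.22 in KI/KI. Cidec was at -3.74, 1.16 and 0.99 in WT and at 4.21, 1.06 and 5.38 in KI/KI. In both, the KI2 heart lay among the WT hearts and the genotypes overlapped. Car3 was at -1.62, 2.44 and 2.35 in WT and at 5.54, 2.47 and 6.39 in KI/KI, so the groups did not overlap, but KI2 lay next to WT2. The second probe of Retn ran from -3.53 in WT1 to 4.09 in KI3, and that of Cidec from -7.72 in WT1, where it was not well above background, to 0.24 in KI3, so both probes of each gene had the same heart at either end.

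The genes that the heart itself uses in fatty acid supply did not follow. Fabp4 was at 7.90, 7.63 and 7.77 in WT and at 7.74, 7.95 and 8.17 in KI/KI. Lpl was at 8.39, 7.97 and 7.59 in WT and at 7.96, 8.36 and 7.37 in KI/KI, highest in WT1 and lowest in KI3. Pparg was at 2.58, 1.98 and 1.98 in WT and at 3.03, 2.27 and 2.88 in KI/KI, with the same pair of hearts at the top as the droplet genes but a range near the median of all probes. The second Lpl probe was likewise highest in WT1 at 7.79 and lowest in KI3 at 5.89.

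**Figure D1:**
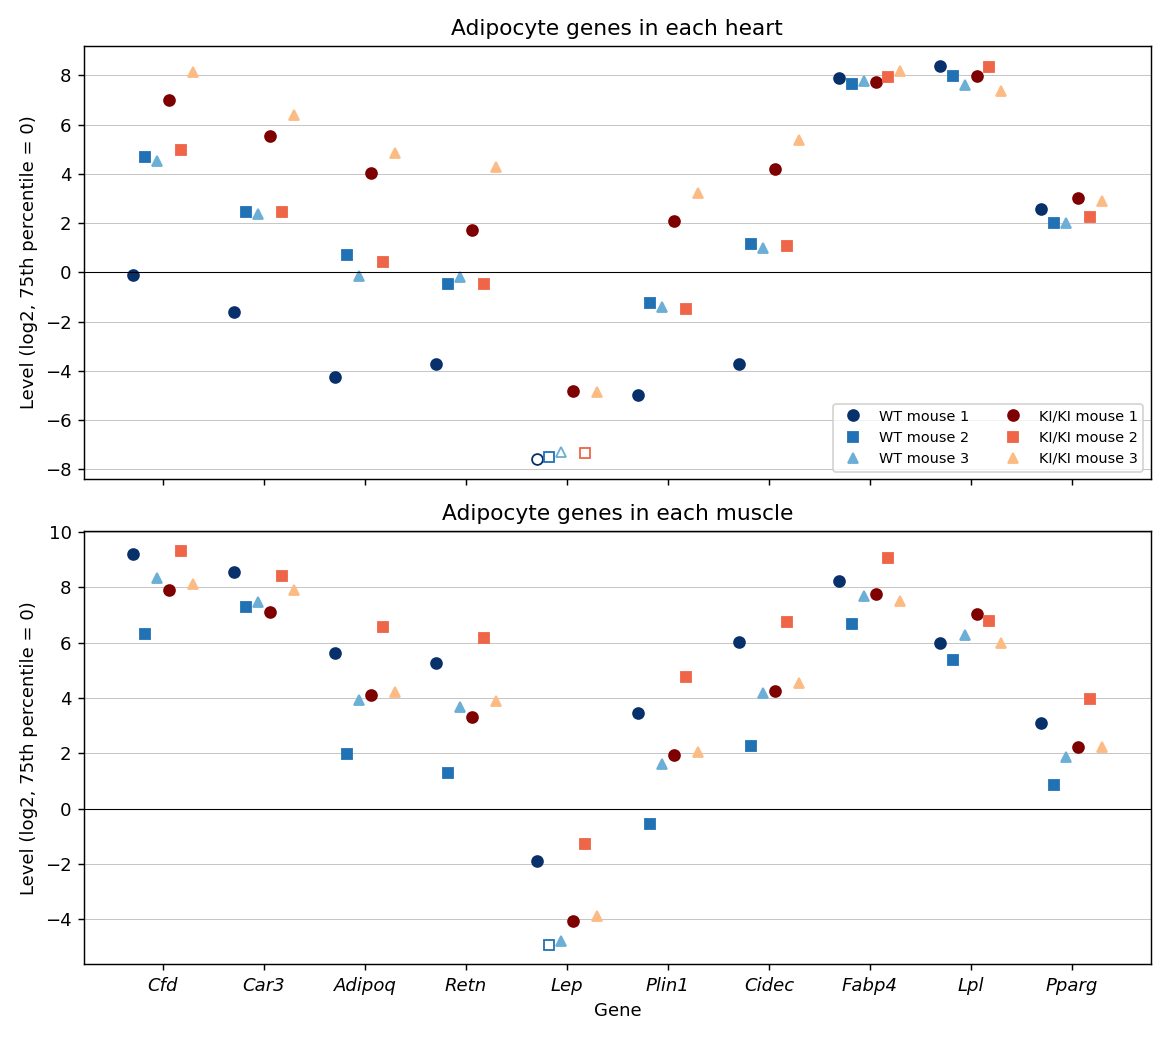
Level of each of the 10 genes in every heart (top) and every muscle (bottom), as log2 signal relative to the array's 75th percentile, with 1 point per mouse and open points where the probe was not well above background. In the hearts KI/KI mice 3 and 1 are at the top and WT mouse 1 at the bottom for the 6 widely spread genes, while in the muscles KI/KI mouse 2 and WT mouse 1 are at the top and WT mouse 2 at the bottom for most genes.

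Between the genotypes, the mean heart level was higher in KI/KI for 9 members and lower for Lpl. The largest difference was that of Adipoq, 4.33 ± 1.57 (SE, n = 3 hearts per genotype), and Cidec, Plin1, Car3, Cfd and Retn differed by 4.08, 3.82, 3.74, 3.68 and 3.32. None of the 9 members that passed the filter was called by limma after Benjamini-Hochberg adjustment over the 34844 heart probes that stood well above background in 3 or more of the 6 hearts (lowest adjusted p = 0.646), and 0% of all tested probes were called. Before adjustment 6 of them had a p under 0.05 in limma, all higher in KI/KI, where 7.51% of tested probes had one, and those 6 are the widely spread genes. The median difference over all 10 members was 3.50, against -0.09 over all probes. All KI/KI hearts were above all WT hearts for 2 members, Cfd and Car3, as they were for 6.02% of tested probes. For these 2 the exact permutation p (two-sided) was 0.1, the smallest that 3 against 3 mice allow. Fabp4 differed by 0.19 ± 0.21, Lpl by -0.09 ± 0.33 and Pparg by 0.54 ± 0.30 (SE, n = 3 per genotype). Lep, with 0 of 3 WT and 2 of 3 KI/KI hearts above background, was not tested and had means of -7.46 and -5.67.

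These values depended on single hearts. Without KI1, or without KI3, 0 members had an unadjusted p under 0.05, and without WT1 only 1 had. The median difference over the 10 members ran from 2.14 (without WT1) to 4.51 (without KI2) with single hearts left out, and was 3.38 without KI1 and 2.47 without KI3. Within the slides that held hearts of both genotypes the median difference was 3.08 on slide 2, with WT1 and WT2 against KI1 and KI2, and 3.83 on slide 3, with WT3 alone against KI3 alone. The heart at the bottom and one of the hearts at the top, WT1 and KI1, were both from mice of 5 months.

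**Figure D2:**
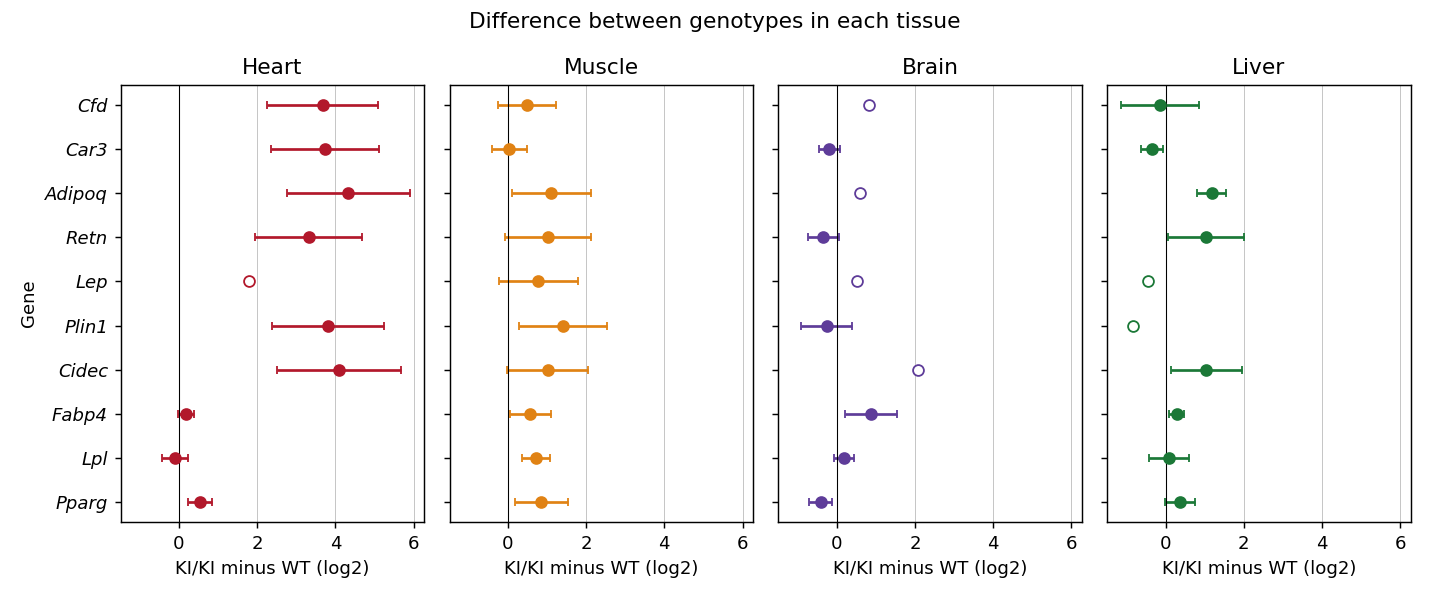
KI/KI minus WT difference of the mean level (log2) for each gene in the 4 tissues, with the standard error from limma as bars (n = 3 mice per genotype) and open points without bars for genes that did not pass the filter on background. In the heart 6 genes lie between 3.32 and 4.33 with wide bars, and in the other tissues most lie within 1.5 of 0.

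Other fat genes in the hearts were examined on a list of 30 more white fat cell genes. Of these, 28 passed the filter and 0 were called after adjustment. An unadjusted limma p under 0.05 was found for 10, all higher in KI/KI, where 7.51% of tested heart probes had one. The median difference over the list was 1.43. KI1 and KI3 were the highest hearts for 22 of the 30 genes, as they were for 8 of the 10 members and for 6.86% of all tested probes. This pair of hearts was singled out after the members' values were seen. The 5 brightest genes of the list, Dgat2, Pnpla2, Plin4, Agpat2 and Gpd1, serve triglyceride synthesis, its breakdown or the droplet coat. None of them was called, and they differed by -0.22, -0.02, 0.07, 0.29 and 0.68. Other genes of the list varied in how far they followed the members. Aqp7, the fat cell's glycerol channel, and Sncg differed by -0.24 and -0.00157. Adrb3, the fat cell's β3-adrenergic receptor, was at -6.75 (not well above background), -2.65 and -2.60 in WT and at 1.88, -1.30 and 2.44 in KI/KI, and Pck1, which feeds glycerol synthesis, was at -3.57, 0.37 and -0.24 in WT and at 4.40, 0.03 and 5.17 in KI/KI. These 4 were picked out after their values were seen.

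KI1 and KI3 were the highest hearts for 5 of 10 brown fat genes, and for 6.86% of all tested probes. Ucp1, the uncoupling protein of brown fat, was at 4.96 in KI1 and 5.93 in KI3, at -1.03 in WT3 and at or below -6.40 in WT1, WT2 and KI2, where it was not well above background. It was named after its values were seen. The 5 brightest of the 10 brown fat genes, Cox7a1, Cox8b, Cidea, Ppargc1a and Otop1, differed between genotypes by -0.27, -0.24, 0.46, 0.04 and 0.90. The first 2 and Ppargc1a serve mitochondrial respiration and are made by heart muscle too. The list's median difference was 0.62, with 0 genes called by limma and 1 at an unadjusted p under 0.05, where 7.51% of tested probes had one.

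Lists of other heart cells were measured beside these. WT1 was the lowest heart for 5 of 5 atrial genes, 5 of 6 mesothelial genes, 5 of 6 fibroblast genes and 5 of 5 neutrophil genes, and for 20.3% of tested probes. The summed level of the 5 atrial genes was 7.03 in WT1 and 9.74 to 10.96 in the other hearts, and 4 of them, Sln, Myl4, Myl7 and Bmp10, ranged over 10.92, 7.74, 10.74 and 4.59. Nppa, the brightest of the 5, ranged over 2.73 and weighs most in the WT1 sum. The summed level of the 6 mesothelial genes, which mark the surface layer of the heart, was 2.86 to 4.41 in WT and 3.87 to 5.05 in KI/KI. It was lowest in WT1 and highest in KI3, but KI1 lay below WT3 and KI2. Msln, the brightest of the 6, weighs most in this sum. By the median of the gene-centred levels, KI1 at 0.10 lay next to WT3 at 0.09, and KI2 was at 0.22. The cardiomyocyte list summed to 10.91 to 11.67 in WT and 10.86 to 11.44 in KI/KI, and the endothelial list to 5.47 to 5.89 and 4.98 to 5.50. Of the genes of these 6 lists, 0 were called after adjustment by limma and 0 had an unadjusted p under 0.05. Of the other cell lists measured in the hearts, 0 genes were called and 5 had an unadjusted limma p under 0.05, where 7.51% of tested probes had one. All 5 were named after their values were seen. Cd8b1 (T cells), Ms4a1 (B cells), Alas2 (red cells) and Cyp2e1 (hepatocytes, also made in fat) had differences of 0.76, 1.16, 0.60 and 2.86, and Acta1 (skeletal muscle) had one of -1.93. Syt1, a neuronal gene, was at -2.21 in KI1 and -0.08 in KI3 and at or below -5.64 in the other hearts, and was not tested. The part that the makeup of each dissected heart plays in the members' levels was not tested.

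**Figure D3:**
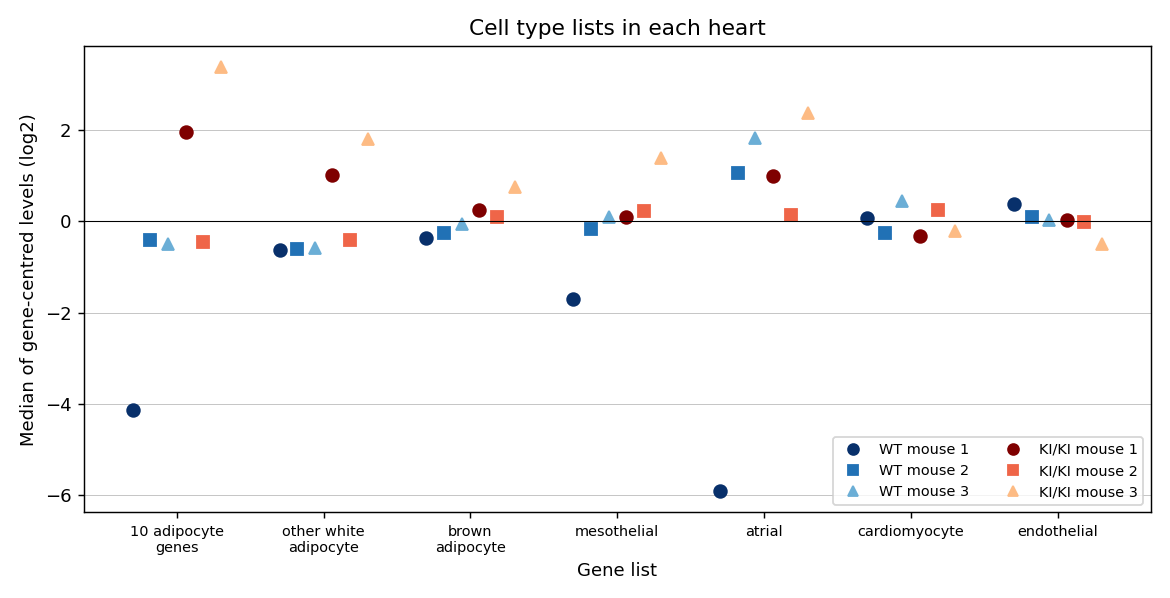
Median over the genes of each list of the gene's level in a heart minus its mean over the 6 hearts (log2), with 1 point per heart. KI/KI mice 3 and 1 are at the top for the 10 genes and for the other white fat cell genes, WT mouse 1 is far below the other hearts for the 10 genes, the atrial and the mesothelial genes, and the cardiomyocyte and endothelial lists stay near 0.

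Receptors for the fat hormones and partners of lipoprotein lipase were examined as well. Of 7 genes for receptors of fat hormones and of hormones and lipids that act on fat, 0 were called in the heart and 0 had an unadjusted p under 0.05 in limma, and the median difference was -0.09. Adipor2 and Adipor1, the adiponectin receptors, differed by 0.20 and -0.09, and Cdh13 (T-cadherin), which binds adiponectin on vessels, by -0.42. Among the genes that serve lipoprotein lipase, Gpihbp1, which holds the lipase on capillaries, differed by -0.48 and Lmf1, which the lipase needs to fold, by -0.47.

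Outside these lists, the 10 genes whose heart pattern lay nearest to the members' mean pattern were Optc, Cldn22, Arxes2, Hp, Acp5, Chdh, Aldh1a7, Wscd2, Ncam1 and Sntg2. Nearness was the root mean square distance of mean-centred levels over the 6 hearts, and it was 0.20 for Optc and 0.40 for Sntg2 against a median of 1.80 over 16066 genes. Hp (haptoglobin), a plasma protein that fat also makes, was at 0.25, 3.14 and 2.47 in WT and at 5.21, 3.096 and 5.34 in KI/KI. Over the muscles the same measure put Cldn22, Chdh, Acp5, Hp and Aldh1a7 at ranks 81, 99, 152, 199 and 227 of 15222 genes. Sntg2, Wscd2, Arxes2 and Optc were at ranks 696, 1069, 1226 and 1658, and Ncam1 at 14445.

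In the muscles the order of the mice was another one. KI2 was highest, or second to another mouse, for every member. KI2 and WT1 were the highest muscles for 9 of 10 members and WT2 was the lowest for 9, as they were for 4.98% and 12.1% of tested muscle probes (again a pair chosen after the values were seen). KI3 was neither highest nor lowest for any member, and KI1 was highest for Lpl and lowest for Car3.

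Cfd was at 9.21, 6.32 and 8.33 in the WT muscles and at 7.91, 9.31 and 8.12 in the KI/KI muscles. Adipoq was at 5.62, 1.99 and 3.93 in WT and at 4.11, 6.56 and 4.20 in KI/KI. Retn was at 5.27, 1.28 and 3.68 in WT and at 3.31, 6.15 and 3.87 in KI/KI. For all 3 the WT muscles held the lowest array and the KI/KI muscles the highest, and the genotypes overlapped. Lep was at -1.89, -4.91 and -4.79 in WT, not well above background in WT2, and at -4.07, -1.30 and -3.88 in KI/KI. Unlike in the hearts, 5 of 6 muscles gave a Lep signal.

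Plin1 was at 3.45, -0.55 and 1.60 in WT and at 1.94, 4.76 and 2.04 in KI/KI. Cidec was at 6.03, 2.25 and 4.18 in WT and at 4.23, 6.75 and 4.53 in KI/KI. For both droplet genes WT2 lay well below the other muscles, and the genotypes overlapped. Pparg, which had a narrow range in the hearts, followed them here, at 3.097, 0.84 and 1.88 in WT and at 2.23, 3.95 and 2.23 in KI/KI. Fabp4 was at 8.24, 6.67 and 7.69 in WT and at 7.76, 9.04 and 7.50 in KI/KI. Its muscle range was 2.37 against 0.54 in the hearts, with the mice in the order of the droplet genes at both ends. Car3 was at 8.54, 7.29 and 7.48 in WT and at 7.12, 8.41 and 7.91 in KI/KI, with WT1 highest and KI1 lowest. Lpl was at 5.997, 5.37 and 6.26 in WT and at 7.04, 6.77 and 5.99 in KI/KI, and it was the member in which KI1 led. The ranges of the 10 members in muscle ran from 1.42 for Car3 to 5.31 for Plin1, against a median of 0.84 over 32339 probes.

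The muscle means were higher in KI/KI for all 10 members, by 0.04 (Car3) to 1.41 (Plin1), with a median of 0.82 against -0.10 over all probes. limma called 0 of the 10 after adjustment over 32378 probes (lowest adjusted p = 0.939), as it called 0% of all tested probes, and 0 members had an unadjusted p under 0.05, where 2.48% of tested probes had one. Lpl came nearest, with 0.73 ± 0.35 (SE, n = 3 per genotype) and an unadjusted limma p of 0.079. The median was 0.16 without WT2 and 0.20 without KI2, and it was 1.60 without WT1. Without KI3, whose muscle held the brain transcripts, it was 1.16. Of the 30 other white fat cell genes 1, Angptl4, had an unadjusted p under 0.05 and 0 were called, and the list's median difference was 1.12. KI2 and WT1 were the highest muscles for 23 of those 30 genes. KI2 and WT1 were the highest muscles for 2 of 10 brown fat genes, and that list's median difference was 0.21. The skeletal muscle list summed to 12.03 to 12.04 in WT and 11.75 to 12.19 in KI/KI. No blood or immune cell gene of the lists was called in the muscle by limma. There, the summed level of 5 neutrophil genes was -0.38 to 1.45 in WT and 1.42 to 6.51 in KI/KI, and 4 of 4 red cell genes had an unadjusted limma p under 0.05, all higher in KI/KI, as had 2 of 5 neutrophil genes and 0 genes of the macrophage, T cell and B cell lists. Their part in the members' levels was not tested.

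In the brain, 6 members passed the filter and limma called 0 of them (lowest adjusted p = 1), with 0% of all probes called. No member had an unadjusted p under 0.05, where 2.62% of tested probes had one, and the median difference over the 10 was 0.35 against -0.03 over all probes. This median includes the members that did not pass, Cfd, Adipoq, Lep and Cidec, which differed by 0.83, 0.60, 0.51 and 2.085. The second Cidec probe, not well above background in any brain, differed by -0.19. Of the 6 that passed, Fabp4 and Lpl differed by 0.88 and 0.19, and Car3, Retn, Plin1 and Pparg by -0.19, -0.34, -0.25 and -0.40. Cfd, Adipoq and Lep were not well above background in any of the 6 brains, and Cidec only in KI2. Lpl, which neurons and microglia also make, was at 0.08, 0.14 and 0.50 in WT and at 0.36, 0.09 and 0.86 in KI/KI.

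In the liver, 8 members passed, 0 were called (lowest adjusted p = 0.9999) with 0% of all probes called, and the median difference was 0.19 against -0.08 over all probes. Adipoq had an unadjusted limma p of 0.0152, where 2.13% of tested probes had one under 0.05. It passed the filter only through the KI/KI livers, the group in which it was higher, so this p cannot be read as support. It was at -6.32, -5.95 and -5.58 in WT, not well above background in any, and at -5.07, -5.23 and -4.02 in KI/KI, well above background in all. By the lowest signal counted as above background it was at least 1.87-fold higher in the KI/KI livers. Car3, which hepatocytes make, was at 8.52, 8.91 and 8.50 in WT and at 8.61, 8.54 and 7.77 in KI/KI, and differed by -0.34 ± 0.28 (SE, n = 3 per genotype). Cidec, which rises in fat-laden hepatocytes, was at 1.85, 0.89 and 0.49 in WT and at 4.34, 0.77 and 1.24 in KI/KI. The KI1 liver alone stood high in Cidec, and it also led in Cfd at 3.62, Pparg at 4.33 and Retn at -2.94. The Cfd livers otherwise lay between -0.45 and 2.27, the Pparg livers between 2.89 and 3.83, and the Retn livers at or below -4.43. The second Retn probe did not have KI1 in the lead, with KI1 at -4.61 below WT1 at -4.28 and KI3 at -4.54.

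Whether the genotype difference itself changed with tissue was tested over all 24 arrays. limma's F test called 0 members (every adjusted p = 1) and 0% of 43674 probes. Before adjustment limma gave a p under 0.05 for Car3 alone, where 2.94% of probes had one, so a heart difference unlike that of the other tissues was not called for any member.

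The WT tissues were compared with each other for the places where these genes are used. Heart and muscle RNA was extracted with the kit for fibrous tissue and brain and liver RNA with another, so that kit and tissue cannot be told apart between these sets. All livers were on slide 1 and all muscles on slide 3, while the brains were on slides 1 and 2 and the hearts on slides 2 and 3. Muscle and liver, muscle and brain, and heart and liver thus shared no slide. Slide and tissue cannot be told apart for these pairs either. The same 3 WT mice stand in every pair, and each pair shares its arrays with others.

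WT muscle was above WT brain for all 10 members, where 34.6% of probes were called higher in muscle and 24.3% lower. The largest bound was that of Cfd, not well above background in brain, which was at least 20470-fold higher in muscle, followed by Cidec at least 1470-fold and Adipoq at least 1128-fold. Against WT liver, muscle was higher for 7 members and lower for 1 (27.2% of probes higher, 27.8% lower). The member below was Pparg, by -1.37 ± 0.51 (SE, n = 3 mice, limma adjusted p = 0.0293), and Car3 and Cidec were not called (adjusted p = 0.427 and 0.0501).

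WT heart was above WT brain for 7 members (32.3% of probes higher, 24% lower), with Lpl 7.74 ± 0.43 higher on the log2 scale. Fabp4 differed by 13.11 ± 0.51, a value that includes the WT1 brain, where it was not well above background. Retn, Lep and Plin1 were not called. Against WT liver it was higher for 5 members and lower for Car3 (24% of probes higher, 26.8% lower). Car3 differed by -7.59 ± 0.89 in heart minus liver, and Cfd, Lep, Cidec and Pparg were not called. WT brain was below WT liver for 6 members and above it for Retn (28.7% of probes higher in brain, 39.2% lower). Retn was at -2.87, -1.53 and -1.98 in the WT brains and at -4.43, -7.48 and -4.54 in the WT livers, not well above background in WT2.

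Heart and muscle, which shared a kit, differed for 8 members: Lpl was 2.11 ± 0.43 higher in the heart and 7 were lower there, where 14.6% of probes were called higher and 15.4% lower. In heart minus muscle, Car3 differed by -6.72 ± 0.89, and Adipoq, Cfd, Retn, Cidec and Plin1 by -5.07, -4.92, -4.88, -4.69 and -4.04 (n = 3 mice). Lep, not well above background in the WT hearts, was 3.20-fold lower there with those hearts set at the lowest signal above background. The muscle mean in this value includes WT2, where Lep was not well above background either, so it is not a strict bound. Fabp4 and Pparg were not called (adjusted p = 0.78 and 0.771). WT1, whose heart was lowest and whose muscle was second highest, carried much of this. Without WT1 only Car3 (-4.99 ± 0.84, adjusted p = 4.95e-04) and Lpl (1.97 ± 0.47, adjusted p = 0.00696) were called, and Adipoq differed by -2.67 with an adjusted p of 0.110 (limma). Without WT3, Plin1 was no longer called (adjusted p = 0.0508). Of the 30 other white fat cell genes, 1 was called higher and 9 lower in WT heart than in WT muscle, with a median difference of -1.73 against -0.09 over all tested probes.

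**Figure D4:**
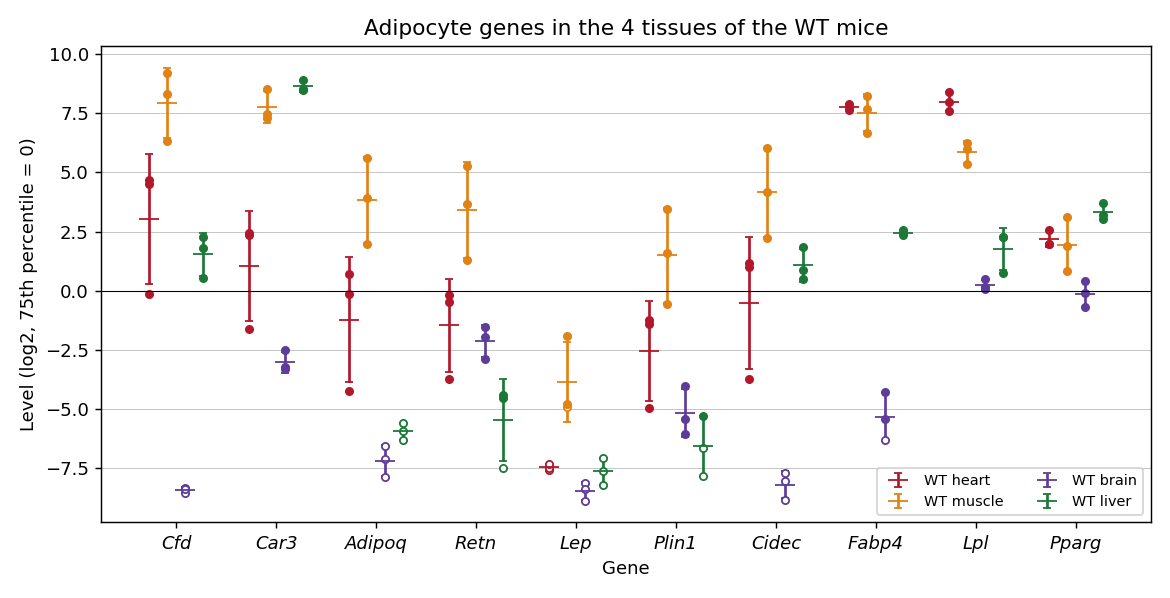
Level of each of the 10 genes in the heart, muscle, brain and liver of the 3 WT mice (log2, 75th percentile = 0), with the mean as a dash, the SD as bars and open points where the probe was not well above background. Muscle lies above brain for every gene, Car3 is highest in liver and muscle, and the heart points of Cfd, Adipoq, Retn, Plin1 and Cidec spread over several units because WT mouse 1 lies far below the others.

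By mean WT level the order of the tissues was muscle, heart, liver, brain for Cfd, Adipoq and Lep. Of the neighbours in this order for Cfd, heart and liver were not told apart (adjusted p = 0.300). For Adipoq liver and brain, and for Lep heart, liver and brain, were not well above background in any WT mouse. For Plin1 and Retn it was muscle, heart, brain, liver, with heart and brain not told apart for either (adjusted p = 0.0776 and 0.678), and for Plin1 brain and liver were not either (adjusted p = 0.319). Cidec ran muscle, liver, heart, brain, with neither muscle and liver nor liver and heart told apart. Car3 ran liver, muscle, heart, brain, with liver and muscle not told apart. For Lpl it was heart, muscle, liver, brain with every neighbour called. Fabp4 had the same order, with heart and muscle not called. Pparg ran liver, heart, muscle, brain, with neither liver and heart (adjusted p = 0.0749) nor heart and muscle told apart.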

How the data were processed

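Total RNA from 4 tissues of 6 mice was hybridised by the authors to 24 one-colour Agilent arrays, and the deposited intensities are Feature Extraction 12.0.3.1 processed signals, background-subtracted. The deposited value table holds scores (per-array z-values of log10 signal) and served as an alternative. Here spots of a probe were averaged without outlier flags, and log2 signals were scaled to each array's 75th percentile over 55681 probes. Probes were named through RefSeq accessions (28331 named). Differences were tested with limma 3.58.1 in R 4.3.3 (lmFit, eBayes) on probes that stood well above background in 3 or more of a tissue's 6 arrays, or of all 24 arrays for the fit of all 8 groups, with Benjamini-Hochberg adjustment over all of them and a threshold of 0.05. The fits were tested on simulated data. The same animal gave all 4 tissues, so replicate numbers pair arrays across tissues, and deviations of paired arrays correlated at -0.21 to 0.26 (median 0.04, 36 pairs). A bound sets a probe not above background at the lowest signal that was. Normexp used median signals, since no mean signal column was given. The members and lists were chosen with earlier results of these data known. All 10 members are named. Of the other lists, genes past the adjusted threshold or at most the 5 brightest are named, and others as stated. The number of arrays limits the precision. The counts of the list of lipoprotein lipase partners are not reported here.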

Additional observations from a re-analysis of the deposited data

How the results depend on the processing

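The count of members called after adjustment between genotypes was 0 in every tissue under every alternative run. In the heart, 0 members had an unadjusted p under 0.05 with the hearts of KI1 and KI3 left out, where the median difference was 1.04. These were the highest hearts, so a smaller difference was fixed by the choice, and KI2 alone was assumed to vary like the WT hearts. In the heart, 0 to 7 had one when single mice were left out. The heart difference of Lpl turned to 0.024 with quantile normalization and to 0.37 without KI1 and KI3, and ran from -0.32 to 0.17 with each mouse left out. In the muscle, 1 member had an unadjusted p under 0.05 with quantile normalization and 1 with the authors' value table, and 0 to 1 with each mouse left out. The muscle difference of Car3 turned to -0.014 with the normexp background, -0.076 with array median scaling and -0.10 with array weights. With each mouse left out it ran from -0.26 to 0.42 for Car3, from -0.32 to 1.12 for Cfd, from -0.031 to 1.97 for Retn and from -0.11 to 1.77 for Lep. In the brain, the median difference over the members was -0.047 with the normexp background, 0.054 with the lowest probe of a gene and -0.022 to 0.40 with each mouse left out. There, 1 member had an unadjusted p under 0.05 without the filter, 2 with array weights and 0 to 1 with each mouse left out. In the liver, 0 members had one with the normexp background, with probes above background on all 6 arrays, and with all 24 arrays in 1 fit. With each mouse left out, 0 to 2 had one and the liver median ran from -0.014 to 0.55. The cause of these changes was not tested. The count of members called between WT heart and WT muscle lay between 2 (without WT1) and 8 with each mouse left out.

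With the mouse as a replicate block over all 24 arrays, 7 members had an unadjusted p under 0.05 in the heart, 0 in the muscle, 0 in the brain and 0 in the liver, and 0 were called in any tissue. The replicate block left 8 members called between WT heart and WT muscle.

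The 3 mice per genotype limit the smallest exact p to 0.1, and single hearts and muscles carry most of the spread. Probes not well above background give bounds and no level, which touches Cfd, Adipoq, Lep and, in all but KI2, Cidec in brain, Lep in the liver and in all hearts but KI1 and KI3, Adipoq in the WT livers and Plin1 in 5 of 6 livers, besides single arrays given above. Age was examined only as a block, with 1 mouse of 5 months per genotype.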
